A study of Mus musculus with 57 samples.

Results

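The loss of *Hoxa5* in the lung of mouse embryos at day E15.5 of gestation was described from 4 wild-type (wt) and 4 *Hoxa5*-/- libraries of polyA RNA, out of 57 libraries of the series. All genes with a mean of at least 1 TPM, a level corrected for gene length and library size, in either genotype were taken, which were 17777 of the 56860 genes counted. The embryos were kept in the 129/Sv background, and the lungs were collected whole, so that each library mixes all cell types of the organ. In the *Hoxa5*-/- embryos, a neomycin cassette interrupts the homeobox in every cell from conception, so that RNA of the *Hoxa5* exons can still be counted. Wt embryos were the controls, and no transgene or Cre is named for these embryos. Lung at E12.5 and trachea at E15.5, with 4 libraries per genotype each, were used only to show where the lung at E15.5 differed. In such bulk RNA, fewer cells of a type and less RNA per cell cannot be told apart.

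HOXA5 is a homeodomain transcription factor expressed in the mesenchyme of the embryonic lung and trachea, and its loss is known to affect lung branching, airway cartilage and survival at birth. Around E15.5, the branching epithelial tubules are embedded in a mesenchyme that holds fibroblast progenitors, airway and vascular smooth muscle and a growing capillary plexus. Endothelial cells of this plexus carry VEGF and TIE receptors, junction proteins such as VE-cadherin and transcription factors of the ETS and SoxF families, while the distal epithelium begins to express surfactant protein genes.

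Between 20692978 and 53939635 reads were counted per library, and p-values measure the spread between these libraries only. The tissue matched its label: the lung epithelial factor *Nkx2-1* lay between 212 and 564 TPM and the lung mesenchymal factor *Tbx4* between 185 and 325 TPM in all 8 libraries, whereas *Myod1* of skeletal muscle and *Krt13* of stratified epithelium reached at most 0.293 and 0.498 TPM. Some libraries stood apart. The 18S ribosomal RNA gene *Rn18s-rs5* took 12% of the counts in mutant replicate 4 and from 0.196% to 0.416% in the others. The liver gene *Alb* reached 283 TPM in mutant replicate 3 and from 1.80 to 23.4 TPM in the others, and *Myh6* of heart muscle reached 72.2 TPM in mutant replicate 4. The log2 ratio of embryonic to adult beta globin (*Hbb-y* over *Hbb-bs*) falls as the embryo develops. This ratio was -3.28, -4.39, -7.09 and -2.59 in wt and -3.51, -1.19, -6.01 and -1.58 in mutant replicates 1 to 4. Replicate 3 of either genotype thus had the lowest ratio, and it also had the highest counts of the surfactant gene *Sftpc* (2031 and 1990 CPM, counts relative to library size, against 381 to 1374 CPM in the other 6 libraries). *Xist* RNA was present in wt replicates 1 and 4 and mutant replicates 2, 3 and 4, and Y-linked RNA in the other 3 libraries, so that both genotypes held embryos of either sex.

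**Figure D1:**
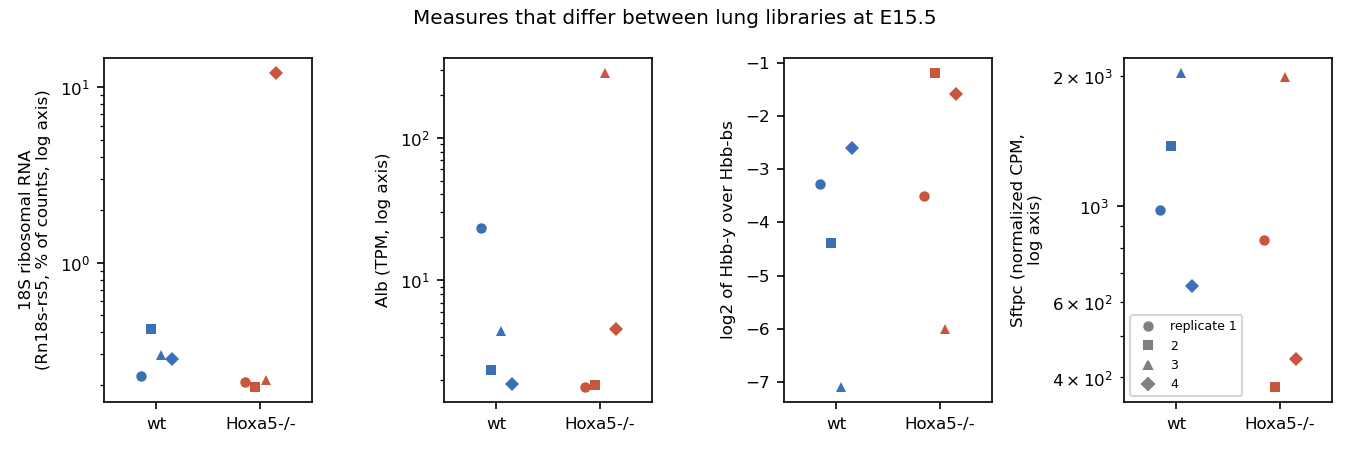
Measures of the 8 lung libraries at E15.5, with 1 point per library, wt in blue and *Hoxa5*-/- in red, and the marker shape giving the replicate number. The 18S ribosomal RNA share is high in mutant replicate 4 (12%), *Alb* is high in mutant replicate 3 (283 TPM), and replicate 3 of either genotype has the lowest globin ratio and the highest *Sftpc* (2031 and 1990 CPM); the 18S, *Alb* and *Sftpc* axes are logarithmic.

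The targeted gene was lower in every mutant library. *Hoxa5* (chr6:52178734-52181567, minus strand, GRCm39) had 83.2, 76.4, 69.9 and 82.6 CPM after TMM normalization in the wt libraries and 22.9, 22.3, 20.1 and 21.6 CPM in the mutants. The genotypes did not overlap, and the log2 fold change was -1.85 ± 0.07 (SE; adjusted p = 1.16e-05, edgeR quasi-likelihood test). The largest rise belonged to *Gm19248*, a processed pseudogene of the actin-binding peptide gene *Tmsb10*. It had 0.0653, 0.0982, 0.154 and 0.100 CPM in wt and 55.5, 32.8, 57.6 and 79.9 CPM in *Hoxa5*-/- lungs, and so was counted in every mutant and close to absent in wt. The log2 fold change of *Gm19248* was 9.08 ± 0.39 (adjusted p = 1.16e-05). Its counts amounted to 5.61% to 15.7% of those of *Tmsb10* in the mutants and to 0.0106% to 0.0264% in wt.

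The pseudogene is 110 bases long, lies on the plus strand of chr7:46616996-46617105 (GRCm39), and falls inside an exon of the long non-coding RNA ENSMUSG00000137035 in the GENCODE annotation used here, which is later than that of the authors. It matched *Tmsb10* at 92.7% of its bases. The sequence is shown with its 8 mismatches to *Tmsb10* in capitals, the first at position 7 and the last at position 56 counted from its 5′ end. The last 54 bases are identical to *Tmsb10*.
Gm19248: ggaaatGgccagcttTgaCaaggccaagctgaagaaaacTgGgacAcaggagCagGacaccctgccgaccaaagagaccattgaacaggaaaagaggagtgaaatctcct

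Beyond these, more genes were lower than higher in the absence of *Hoxa5*. With an adjusted p under 0.05 and at least 1.5-fold in edgeR, 18 genes were lower (0.101% of those tested) and 4 were higher (0.0225%), *Hoxa5* and *Gm19248* included. DESeq2, which was the tool of the study, called 60 genes lower (0.338%) and 23 higher (0.129%), among them all 22 called by edgeR. Without the fold-change limit, the DESeq2 adjusted p was under 0.05 for 138 lower (0.776%) and 42 higher genes (0.236%). Before adjustment, 639 genes were lower at p under 0.05 (3.59%) and 484 were higher (2.72%) in edgeR. All mutant libraries lay below all wt libraries for 2.69% of genes and above them for 1.69%, and the median log2 fold change of all genes was -0.01.

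Several of the genes called lower are known from endothelial cells. *Lyve1* (chr7:110449814-110462446), a hyaluronan receptor of lymphatic and some blood vessel endothelium and of some macrophages, was at 63.5, 76.5, 98 and 65.9 CPM in wt and at 18.6, 23, 18 and 29 CPM in mutant lungs. The lowest wt library lay above the highest mutant library, and the difference was 3.45-fold (log2 fold change -1.79 ± 0.18, adjusted p = 0.0088). *Stab2* (chr10:86677062-86843889), an endothelial scavenger receptor that also binds hyaluronan, was at 24.3, 24, 31.6 and 25.3 CPM in wt and at 7.67, 8.12, 12.2 and 7.13 CPM in the mutants. These groups were apart as well, with a log2 fold change of -1.57 ± 0.18 (adjusted p = 0.0126). Its paralog *Stab1*, by contrast, had a log2 fold change of 0.02 ± 0.06.

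*Kit* (chr5:75735576-75817382), the receptor for stem cell factor on capillary endothelium, mast cells and progenitors, fell from 98.5, 98.7, 116 and 102 CPM to 66.3, 61.4, 75.2 and 64.6 CPM (log2 fold change -0.63 ± 0.08, adjusted p = 0.0236). *Ackr3* (chr1:90131702-90144473), which takes up the chemokine CXCL12, fell from 41.1, 43.6, 48.2 and 34.6 CPM to 19.4, 20.4, 24.1 and 19.6 CPM (log2 fold change -1.0 ± 0.11, adjusted p = 0.0126). For the inward rectifier potassium channel gene *Kcnj2* (chr11:110956990-110967647), the values were 19.4, 20.1, 17.6 and 23.5 CPM in wt and 8.94, 9.97, 8.96 and 10.6 CPM in the mutants (log2 fold change -1.07 ± 0.11, adjusted p = 0.0088). All 3 genes had mutant libraries below every wt library. *Cd109* (chr9:78522828-78623535), a surface protein that binds TGF-β, had the smallest spread, from 44.9 to 46.9 CPM in wt and from 24.1 to 27.2 CPM in mutants (log2 fold change -0.84 ± 0.06, adjusted p = 0.00113). *Edil3*, a matrix protein deposited by endothelial cells that binds integrins, and *Srgn*, the core protein of a proteoglycan of secretory granules in blood and endothelial cells, had log2 fold changes of -1.05 ± 0.15 and -1.14 ± 0.16.

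Some of the genes with the largest falls were close to absent from mutant lungs. *Glp1r* (chr17:31120791-31159765), the receptor for glucagon-like peptide 1, was at 3.02, 3.56, 12.7 and 2.51 CPM in wt and at 0.165, 0.0686, 0.181 and 0.0544 CPM in the mutants. Wt replicate 3 was the highest by far, and the groups were apart also without it (log2 fold change -5.38 ± 0.69, adjusted p = 0.0275). *Gsg1* fell from 2.07, 2.38, 3.11 and 1.54 CPM to 0.303, 0.114, 0.218 and 0.0544 CPM (log2 fold change -3.60 ± 0.39, adjusted p = 0.0109). *Nox1*, the catalytic subunit of a superoxide-producing NADPH oxidase, fell from 2.09, 1.91, 1.45 and 2.34 CPM to 0.359, 0.183, 0.272 and 0.272 CPM (log2 fold change -2.84 ± 0.25, adjusted p = 0.00471). *Cyp4b1* (chr4:115481922-115504920), a cytochrome P450 enzyme abundant in lung, was better covered, at 6.4, 6.6, 9.62 and 5.62 CPM in wt and 0.772, 0.961, 1.5 and 1.09 CPM in the mutants, with a log2 fold change of -2.69 ± 0.25 (adjusted p = 0.00474). For none of the 4 genes did a mutant library reach the lowest wt library.

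Also called lower were the zinc finger gene *Prdm8* (-1.85 ± 0.26), the calcium-dependent kinase gene *Camk4* (-1.39 ± 0.15), the copine gene *Cpne8* (-0.74 ± 0.10) and *Casz1*, a zinc finger transcription factor of heart and vessel development (-0.65 ± 0.09), all as log2 fold changes. *Casz1* was between 27.4 and 34.1 CPM in wt and between 18 and 21.1 CPM in the mutants. The other 3 genes called higher are not pseudogenes. *Col8a2* (chr4:126180586-126208123), a collagen VIII chain of basement membranes, was at 14.2, 14.1, 11.6 and 14.8 CPM in wt and at 24.9, 23.2, 19.6 and 25.4 CPM in mutants (log2 fold change 0.76 ± 0.11, adjusted p = 0.0463). The protease gene *Prss23* rose from 11.4, 12.9, 11.1 and 10.9 CPM to 18.2, 18.4, 17.7 and 18.51 CPM (log2 fold change 0.65 ± 0.08, adjusted p = 0.0235), and *Fam124a* rose from between 5.55 and 5.94 CPM to between 8.21 and 8.85 CPM (0.59 ± 0.08, adjusted p = 0.0456).

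**Figure D2:**
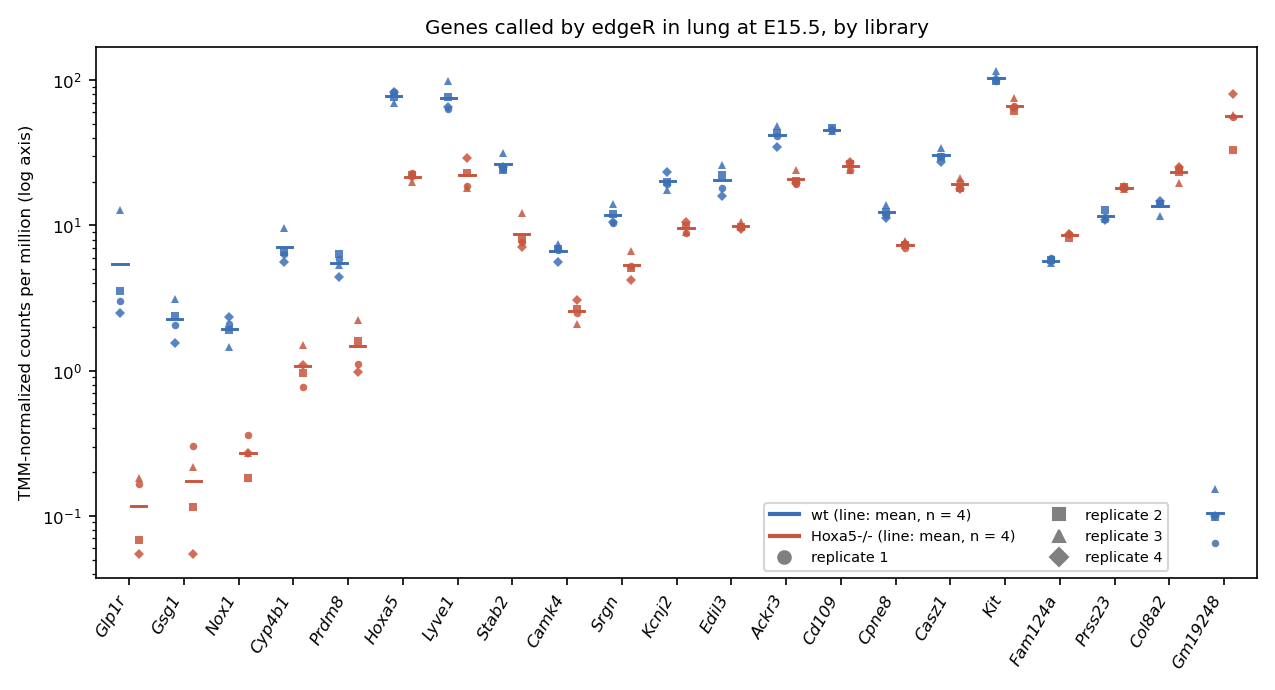
Normalized CPM (log axis) of 21 genes called by edgeR in each lung library at E15.5, ordered by log2 fold change, with wt in blue, *Hoxa5*-/- in red, horizontal lines for the means of 4 libraries and a marker shape for each replicate number. Wt and mutant points are apart for every gene, and the gap is widest for *Gm19248*, which lies below 0.2 CPM in wt and between 32.8 and 79.9 CPM in mutants.

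*Hoxa5*, *Gm19248*, *Cyp4b1*, *Cd109* and *Nox1* passed the edgeR limits without any 1 of the 8 libraries, while each of the other 17 genes lost its call without at least 1 of them. *Lyve1* lost it without wt replicate 2, mutant replicate 1 or mutant replicate 2, where the adjusted p was at most 0.0585, and its log2 fold change stayed between -1.93 and -1.55 in all alternatives. *Stab2*, *Ackr3*, *Glp1r* and *Edil3* lost it without wt replicates 1 or 2 or mutant replicates 1, 2 or 4. *Kit*, *Casz1*, *Cpne8*, *Prdm8*, *Srgn* and *Col8a2* lost it without any library but mutant replicate 3, and *Fam124a* without any. *Gsg1*, *Kcnj2* and *Camk4* lost it without up to 4 libraries, each of them among replicates 1 and 2, and *Prss23* without any but replicate 3 of either genotype. Over all alternatives, the highest adjusted p was 0.0818 for *Ackr3*, 0.137 for *Kit*, 0.202 for *Stab2* and 0.248 for *Glp1r*. Some genes share exon bases with others, and the strand setting of the counting is not given in the sources used here: 29.3% of the exon bases of *Gsg1* lie in the same-strand gene ENSMUSG00000119940 with others in *Fam234b*, 29.1% of those of *Prdm8* in *A730035I17Rik*, 22.9% of those of *Prss23* in *Prss23os* and 12.1% of those of *Nox1* in *Cstf2*.

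Promoter sequences, of 250 bases before to 50 bases after the start site (RefSeq, GRCm38.p6), were found for 16 of the genes called by edgeR, with 26 promoters, and for 59 of those called by DESeq2, with 83 promoters. The letters TGATNNAT, read on both strands as a HOX-PBX composite, occurred in 4.36% of the 14707 promoters of tested genes, in none of the 26 and in 3 of the 83 (3.61%). The homeodomain core TAATTA occurred in 2.7% of promoters of tested genes, in 1 of the 26 (3.85%) and in 4 of the 83 (4.82%). The 1 match among genes called by edgeR was in *Nox1*, 235 bases before its start site, and this promoter (chrX:134111805-134112104, minus strand) is shown with the match in capitals.
Nox1: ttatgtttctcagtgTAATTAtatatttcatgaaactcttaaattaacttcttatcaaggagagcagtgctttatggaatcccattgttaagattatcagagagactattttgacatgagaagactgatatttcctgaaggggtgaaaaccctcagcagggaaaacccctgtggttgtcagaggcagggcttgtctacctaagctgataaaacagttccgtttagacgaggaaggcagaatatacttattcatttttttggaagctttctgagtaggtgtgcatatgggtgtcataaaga
A match of these letters is a description of the sequence and not a site of binding.

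Of the genes called by DESeq2 alone, several are again known from endothelial cells. *Apln*, the ligand of the apelin receptor and a gene of sprouting endothelial cells, was at 53.6, 52.8, 27.8 and 49.8 CPM in wt and at 22, 21.7, 15.1 and 20.5 CPM in mutant lungs. Replicate 3 was the lowest of each genotype, yet the groups did not overlap (DESeq2 adjusted p = 3.11e-06, edgeR adjusted p = 0.0903, log2 fold change -1.22 ± 0.21). *Ptprb*, the phosphatase that acts on TIE2 and VE-cadherin, had a log2 fold change of -0.86 ± 0.13, the SoxF factor gene *Sox18* -0.62 ± 0.14, the transcriptional repressor gene *Bcl6b* -0.67 ± 0.12, the arterial semaphorin gene *Sema3g* -0.74 ± 0.15 and the thrombin receptor gene *F2rl3* -0.88 ± 0.14. DESeq2 also called the MHC class II genes *H2-Aa* (-1.27 ± 0.27) and *H2-Ab1* (-1.33 ± 0.28), the sialyltransferase gene *St6galnac5* (-1.20 ± 0.25), *Fam124b* (-1.22 ± 0.22), *Prr18* (-1.18 ± 0.21), *Neurl3* (-1.13 ± 0.28), *Bik* (-1.05 ± 0.23), *Upp1* (-1.05 ± 0.18) and *Slfn5* (-1.02 ± 0.26). *A730035I17Rik* (-1.4 ± 0.32) shares 59.0% of its exon bases with *Prdm8*.

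The genes called higher by DESeq2 alone were led by *Gm11539* (1.84 ± 0.31), the LIM homeodomain gene *Isl1* (1.64 ± 0.46), *Nell2* (1.4 ± 0.29), the forkhead factor gene *Foxc1* (1.34 ± 0.26) and the heparan sulfate sulfotransferase gene *Hs3st1* (1.29 ± 0.32). *Gm11539* is a processed pseudogene with few reads, at 0.131, 0.270, 0.185 and 0.334 CPM in wt and 0.910, 0.686, 0.689 and 1.03 CPM in mutants. *Foxc1*, a factor of mesenchyme and vessel development, was at 2.63, 2.18, 1.51 and 2.31 CPM in wt and at 5.21, 7.07, 3.32 and 6.48 CPM in mutants, with no overlap. *Isl1* and *Shisa6*, an auxiliary protein of AMPA receptors, were highest in mutant replicate 4, with 5.55 and 12.1 CPM against at most 3.14 and 5.76 CPM in the other mutants, and without that library the log2 fold changes were 1.20 for *Isl1* and 0.69 for *Shisa6* (1.12 with it). Mutant replicate 4 was also the library with most cardiac muscle RNA, as the 21 genes of a cardiac list summed to 825 CPM in it and to between 150 and 359 CPM in the other 7 libraries. *Csf3r*, the receptor for granulocyte colony stimulating factor, was higher by 0.61 ± 0.12, and *Lrrn4* of the mesothelium by 0.62 ± 0.15 on the log2 scale.

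Pan-endothelial genes were lower as a group in *Hoxa5*-/- lungs, by a moderate amount. The list was chosen with earlier results of these data known, and its members come from the same libraries. The counts below are thus descriptions and not a test of the list. Of 38 such genes, all of which were tested, 36 had a fitted change below 0, against 52.1% of all genes, and their median log2 fold change was -0.34, against -0.01 for all genes. Unadjusted p was under 0.05 for 28 of them, all lower (3.59% of all genes were lower at this limit), and 22 had all mutant libraries below all wt libraries (2.69% of all genes). None passed the edgeR limits (0.101% of all genes called lower), DESeq2 called *Ptprb* and *Sox18*, and 17 had a DESeq2 adjusted p under 0.05 without the fold-change limit (0.776% of all genes). Their summed level was 3426, 3614, 3879 and 3217 CPM in wt and 2800, 2764, 3061 and 2576 CPM in the mutants, without overlap. Between 33 and 36 of the 38 were lower when each library was left out in turn, with medians from -0.38 to -0.28, and 35 were lower with the globin ratio as a covariate (median -0.28).

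Among these genes, *Pecam1*, an adhesion molecule of endothelial junctions, was at 242, 263, 322 and 235 CPM in wt and at 190, 174, 223 and 166 CPM in mutants (log2 fold change -0.50 ± 0.12, DESeq2 adjusted p = 0.0151). *Cdh5*, which encodes VE-cadherin, was at 409, 431, 452 and 377 CPM in wt and at 314, 307, 343 and 289 CPM in mutants (-0.41 ± 0.07, DESeq2 adjusted p = 0.000102). *Tie1*, a receptor kinase that modulates angiopoietin signalling, was at 212, 219, 240 and 194 CPM in wt and at 153, 156, 167 and 133 CPM in mutants (-0.51 ± 0.08, DESeq2 adjusted p = 2.62e-05). In none of the 3 did a mutant library reach the lowest wt library. *Emcn* (-0.52 ± 0.09), *Plvap* (-0.43 ± 0.08), *Cd34* (-0.42 ± 0.07), *Sox7* (-0.42 ± 0.07) and *Cldn5* (-0.38 ± 0.08) were apart in the same manner. The VEGF receptor gene *Flt1* (0.11 ± 0.07), *Tek*, which encodes TIE2 (-0.05 ± 0.07), *Eng* (-0.07 ± 0.08), *Lmo2* (0.10 ± 0.07) and *Fli1* (-0.08 ± 0.07) had overlapping libraries.

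**Figure D3:**
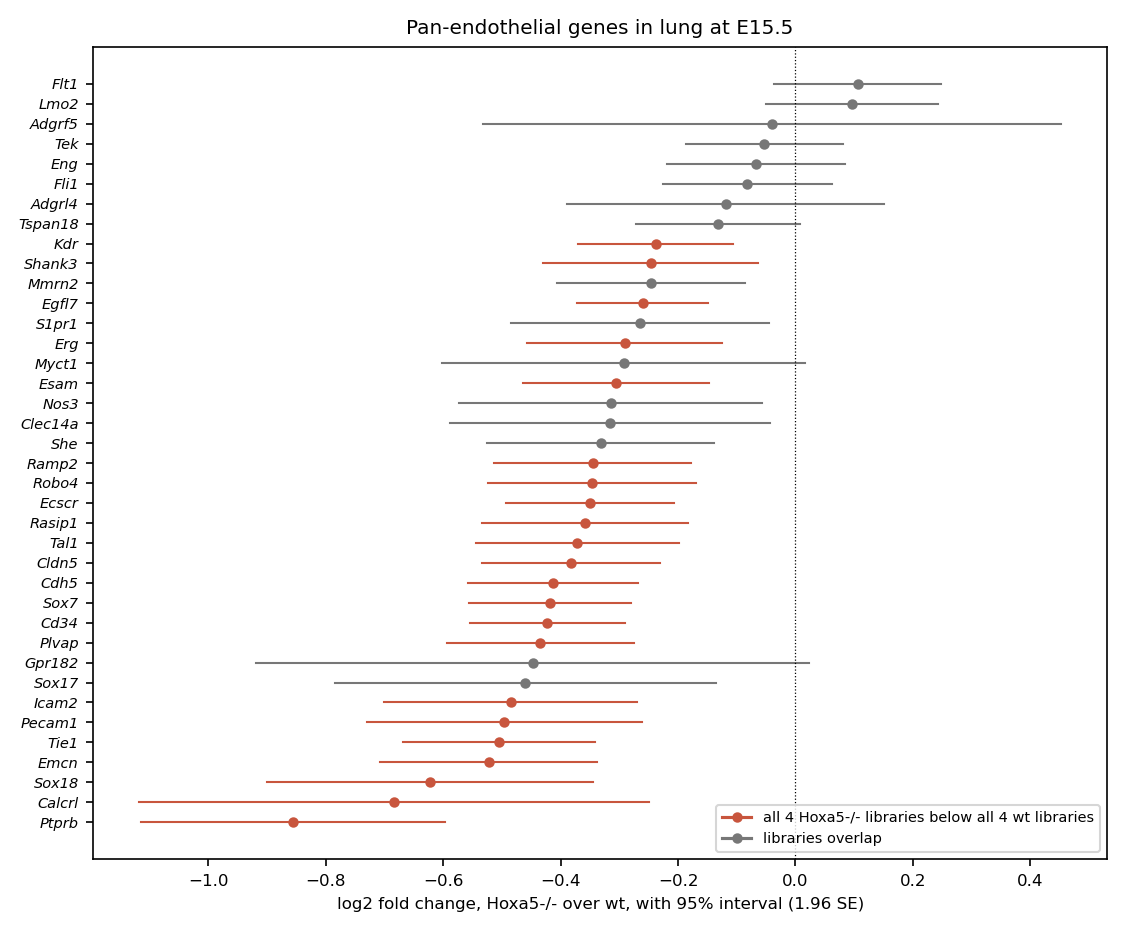
Log2 fold change (*Hoxa5*-/- over wt) of the 38 pan-endothelial genes with 95% intervals from the edgeR standard error, in red where all 4 mutant libraries lay below all 4 wt libraries and in grey where they overlapped. The points run from -0.86 for *Ptprb* to 0.11 for *Flt1*, and 36 lie below 0.

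Lists of vessel types differed in how many members were lower. Over all genes, 52.1% were lower, and 3.59% were lower at an unadjusted p under 0.05 in edgeR. In the capillary list, 10 of 14 tested genes were lower with a median of -0.21, and the 7 with an unadjusted p under 0.05 were *Kit*, *Apln*, *Aplnr* (-0.40 ± 0.06, DESeq2 adjusted p = 9.81e-06), *Gpihbp1* (-0.88 ± 0.26), *Cd36* (-1.21 ± 0.44), *Cd93* (-0.15 ± 0.05) and *Prx* (-0.43 ± 0.16), all lower. The arterial list had 10 of 13 lower (median -0.09), with *Sema3g* called by DESeq2, *Notch4* at -0.48 ± 0.09 (DESeq2 adjusted p = 0.000658) and the ephrin ligand gene *Efnb2* at 0.14 ± 0.06. Of 8 venous genes, 5 were lower (median -0.12). Of 13 lymphatic genes, 5 were lower (median 0.08): apart from *Lyve1*, the lymphatic master regulator *Prox1* had a log2 fold change of 0.15 ± 0.23 with 7.14, 7.22, 5.58 and 8.36 CPM in wt and 7.70, 7.46, 5.02 and 11.5 CPM in mutants, and *Mmrn1* one of 0.58 ± 0.20. The scavenger receptor list, made for sinusoidal endothelium, also holds genes of other kinds, such as the ligand gene *Rspo3*. Of its 9 tested genes, only 3 were lower: *Lyve1*, *Stab2* and *Clec1b* (-0.66 ± 0.16, DESeq2 adjusted p = 0.0361), the last also in the megakaryocyte list. *Mrc1* was at 0.36 ± 0.12 and the median of the list was 0.02.

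Ligands of endothelial receptors had smaller changes. Of 19 vascular ligand genes, 10 were lower (median -0.00), close to the 52.1% of all genes, and none was called by either tool. *Vegfa*, the main growth factor of these cells, was at 221, 214, 309 and 240 CPM in wt and at 237, 235, 279 and 224 CPM in mutants (-0.01 ± 0.12). The TIE2 ligand gene *Angpt1* was at 0.06 ± 0.09, whereas *Vegfc*, a ligand of VEGFR3, was at 14, 14.6, 12.9 and 13.3 CPM in wt and at 10.9, 11.8, 9.7 and 11 CPM in mutants (-0.34 ± 0.09, unadjusted p = 0.00428 in edgeR). Of 16 genes of the TIE and VEGF receptor list, which shares members with the lists above, 10 were lower (median -0.14, with 52.1% of all genes lower). Unadjusted p was under 0.05 for 8 of them, all lower (3.59% of all genes). The Notch list shares *Notch4*, *Dll4*, *Hey1* and *Jag1* with the arterial list, so that the 2 are not separate results. Of its 19 tested genes, 16 were lower (52.1% of all genes were), with a median of -0.09. The 6 with an unadjusted p under 0.05 were all lower (3.59% of all genes were lower at this limit): *Notch4*, the glycosyltransferase gene *Mfng* (-0.37 ± 0.06, DESeq2 adjusted p = 2.62e-05), the ligand genes *Dll1* (-0.47 ± 0.13) and *Dll4* (-0.40 ± 0.15) and the target genes *Hey1* (-0.55 ± 0.17) and *Nrarp* (-0.59 ± 0.18). *Notch1* (-0.09 ± 0.08) and *Hes1* (-0.01 ± 0.07) had overlapping libraries.

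The level of some genes was also set against the endothelial level of the same library, taken as the mean log2 CPM of the pan-endothelial list without the gene itself. Most of these genes were picked because they were called at 1.5-fold or more, and as the mean log2 fold change of the list was -0.32, a lower ratio was largely fixed by that choice, so that the ratios are a description only. The log2 ratio of *Lyve1* to this mean was -0.05, 0.16, 0.39 and 0.10 in wt and -1.51, -1.22, -1.72 and -0.77 in mutants, and that of *Stab2* was between -1.52 and -1.24 in wt and between -2.79 and -2.28 in mutants. The average difference was -0.31 for *Kit*, -0.19 for *Tie1* and -0.09 for *Cdh5*, whose ratios did not overlap between genotypes either, whereas those of *Apln* (-0.86), *Gpihbp1* (-0.56), *Cd36* (-0.90), *Pecam1* (-0.17) and *Aplnr* (-0.07) overlapped.

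No gene of the 6 epithelial lists was called by edgeR (0.124% of all genes) or DESeq2 (0.467%), and 2 members, *Irx5* and *Etv1*, had an unadjusted p under 0.05. Most of these genes still lay below 0, against 52.1% of all genes: 27 of 28 pan-epithelial genes (median -0.12), 21 of 23 alveolar genes (median -0.29) and 17 of 18 ciliated cell genes (median -0.34). The libraries overlapped, however, for all but 1 of the 28 pan-epithelial genes. *Epcam* was at 214, 229, 240 and 227 CPM in wt and at 233, 202, 237 and 201 CPM in mutants (-0.06 ± 0.07), and *Nkx2-1* at 338, 349, 414 and 296 CPM in wt and at 316, 264, 404 and 225 CPM in mutants (-0.21 ± 0.17). *Sftpc* was at 981, 1374, 2031 and 652 CPM in wt and at 836, 381, 1990 and 441 CPM in mutants (-0.47 ± 0.53). The replicates thus spread widely within each genotype, with replicate 3 the highest in both, and the medians of 3 lists rested on it. Without mutant replicate 3 and without wt replicate 3, the alveolar median was -0.76 and 0.0012, the ciliated cell median -1.08 and 0.11, and the airway secretory and basal median -0.88 and 0.050. The Iroquois factor gene *Irx5* was at -0.21 ± 0.08, and the ETS factor gene *Etv1* of the alveolar list at 0.20 ± 0.07. Genes of the distal tips, where branching occurs, had a median of 0.02 over 17 genes, airway secretory and basal genes one of -0.24 over 11, and neuroendocrine genes one of 0.00 over 9.

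Genes of the mesenchyme, where HOXA5 is known to act, had medians close to that of all genes, with members on either side of 0. Of 34 mesenchymal transcription factor genes, 16 were lower and 18 higher (median 0.03), with *Casz1* as the only called member. Unadjusted p was under 0.05 for 7 of them that were higher (2.72% of all genes), which were *Prrx1*, *Nr2f2*, *Tbx5*, *Nfib*, *Gata5*, *Gata4* and *Hand2*, and for 3 that were lower (3.59%), which were *Casz1*, *Klf2* and *Klf4*. *Tbx4* (-0.02 ± 0.07) and *Foxf1* (-0.18 ± 0.10) had overlapping libraries, *Prrx1* was at 23.2, 24.2, 23.7 and 20.9 CPM in wt and at 29.5, 29.4, 27.3 and 37.1 CPM in mutants (0.42 ± 0.10, DESeq2 adjusted p = 0.0168), and *Nr2f2* was at 0.17 ± 0.05 (DESeq2 adjusted p = 0.0235). The list of 45 mesenchymal signals and their targets had a median of 0.09 and no called gene, and unadjusted p was under 0.05 for 5 that were higher (*Bmp5*, *Notum*, *Aldh1a2*, *Rarb* and *Rspo3*) and 1 that was lower (*Wnt2*). *Fgf10*, which drives branching, was at 44.3, 50.0, 58.9 and 50.9 CPM in wt and at 52.9, 48.9, 64.6 and 51.9 CPM in mutants (0.10 ± 0.11), and *Wnt2*, needed for lung specification, was at -0.14 ± 0.06.

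Among 51 matrix genes, 26 were higher and 25 lower, with *Col8a2* as the only called gene. The laminin gene *Lama2* was at 57.2, 56.8, 55.5 and 62.6 CPM in wt and at 83.6, 79.9, 70.1 and 92.5 CPM in mutants, which did not overlap and was under the fold-change limit (0.49 ± 0.08, DESeq2 adjusted p = 7.54e-05). The basement membrane collagen genes *Col4a1* and *Col4a2*, both at -0.28 ± 0.10, had overlapping libraries. Of 24 smooth muscle genes, 21 were higher (47.9% of all genes were; median 0.15) and none was called, with *Acta2* at 0.08 ± 0.12, *Myh11* at 0.20 ± 0.12 and the muscarinic receptor gene *Chrm2* at 0.53 ± 0.15. Pericyte genes (median -0.10 over 16), elastic fibre genes (-0.02 over 22) and lipofibroblast genes (-0.08 over 12) held no called gene either. In the lipofibroblast list, *Enpp2*, which makes lysophosphatidic acid, was at 0.40 ± 0.09 (DESeq2 adjusted p = 0.00889). Cartilage genes had a median of 0.14 over 19 and mesothelial genes one of 0.08 over 20, with *Lrrn4* called by DESeq2.

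**Figure D4:**
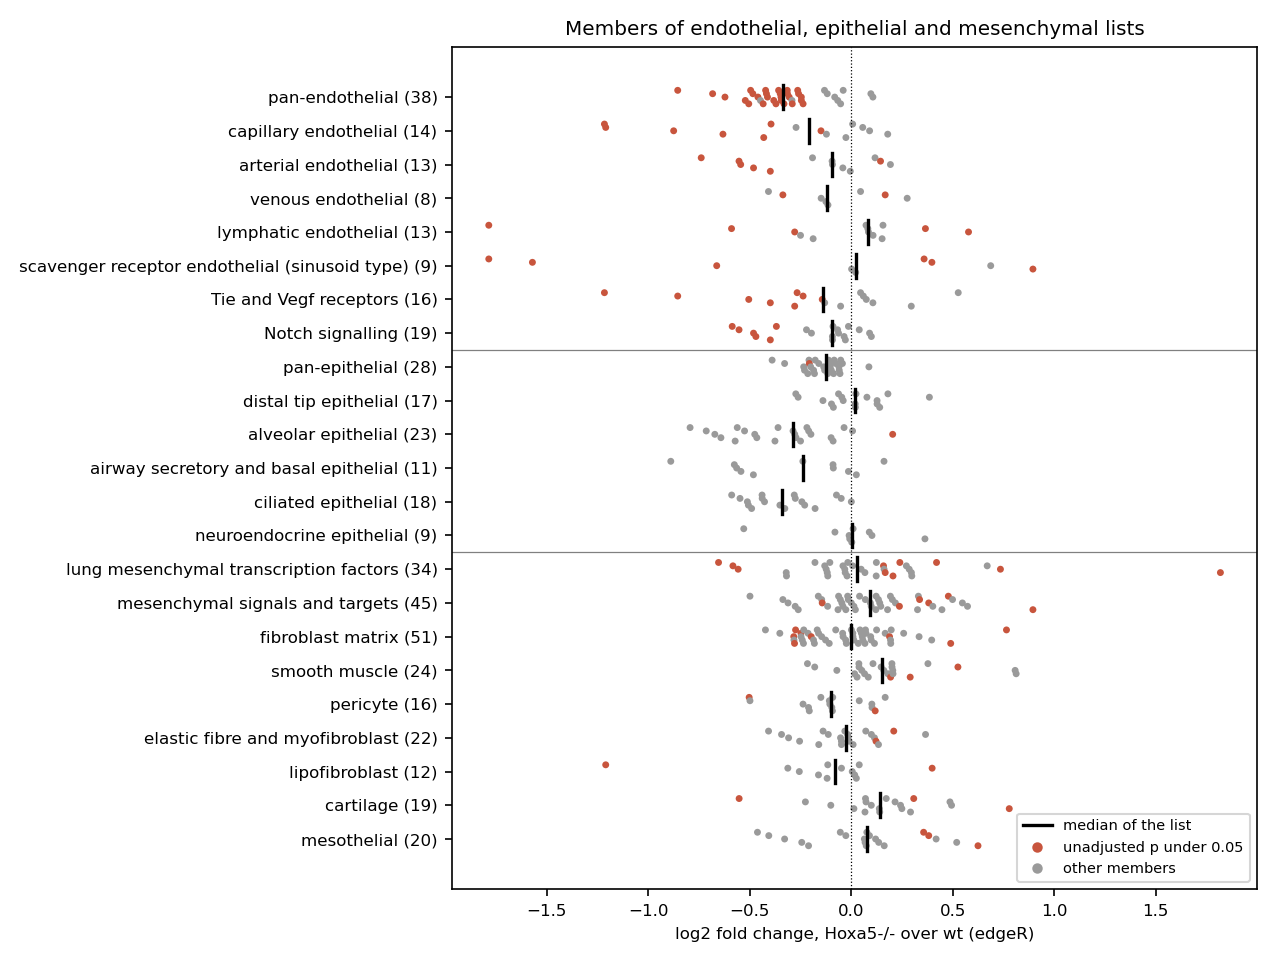
Log2 fold change (*Hoxa5*-/- over wt, edgeR) of each tested member of 23 endothelial, epithelial and mesenchymal lists, with the number of members in brackets, medians as black bars, and red for an unadjusted p under 0.05. The pan-endothelial list has 28 red points, all below 0, whereas the pan-epithelial list has 1.

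Genes of other cell types served to see what else moved. Macrophage genes had a median of -0.17 over 23 genes, none of them called, with *Ccr2* at 7.42, 8.62, 12.1 and 5.21 CPM in wt and at 3.64, 2.33, 6 and 3.32 CPM in mutants (-1.11 ± 0.32, DESeq2 adjusted p = 0.0508). Erythroid (0.06), hypoxia (0.04) and proliferation genes (0.01) had medians close to 0. In the proliferation list, *Mki67* (-0.35 ± 0.09), *Cenpe* (-0.53 ± 0.14) and *Cenpf* (-0.72 ± 0.17) were the 3 of 26 members with unadjusted p under 0.05 (3.59% of all genes were lower at this limit). In each of these 3 genes, mutant replicate 1 was lowest. Immediate early genes were lower in 19 of 22 cases (median -0.16, with 52.1% of all genes lower), among them the flow-responsive factor gene *Klf2* (-0.56 ± 0.19). Hepatocyte genes had a median of 2.79 that was -0.26 without mutant replicate 3, and cardiac muscle genes one of 0.96 that was -0.10 without mutant replicate 4. Granulocyte and mast cell genes, with 9 of 18 above the expression limit, had a median of 0.61 that was -0.0031 without mutant replicate 3. Neuron and glia genes had a median of 0.26 that was 0.081 without mutant replicate 4, megakaryocyte genes one of -0.18 and skeletal muscle genes one of 0.46, while only 2 thymus and foregut genes and 1 kidney and adrenal gene passed the limit.

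The genotype effect in lung at E15.5 was set against that in the same organ at E12.5 and in trachea at E15.5 by a test of the interaction. In edgeR, 5 genes differed from lung at E12.5 (0.0267% of 18733) and 1, *Hoxa6*, from trachea (0.00502% of 19907), and none of the genes called in lung at E15.5 was among them. DESeq2 found 18 genes for the stages (0.0961%), 14 of them with a lower value in lung at E15.5 (0.0747%), and 59 for the tissues (0.296%), 41 of them lower in lung (0.206%). For *Ackr3*, the log2 fold change was -1.0 ± 0.11 at E15.5 and 0.66 ± 0.24 at E12.5, with wt levels of 48.3 and 27.6 TPM (DESeq2 adjusted p of the interaction 4.31e-05, edgeR 0.0921). *Kcnj2* was at 0.16 ± 0.19 and *Camk4* at 0.01 ± 0.18 at E12.5, and both differed from E15.5 in DESeq2 (adjusted p = 0.00072 and 2.63e-05). *Gsg1* and *Cyp4b1* differed too, the latter with 0.259 TPM in wt at E12.5 and 12.1 TPM at E15.5.

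*Lyve1* fell at E12.5 as well (-1.30 ± 0.26, DESeq2 adjusted p = 5.85e-05) and so did *Stab2* (-0.74 ± 0.18, DESeq2 adjusted p = 0.025) and *Casz1* (-0.65 ± 0.14, DESeq2 adjusted p = 0.0021). In edgeR, the adjusted p was 0.141, 0.261 and 0.189 for these genes at E12.5. None of their interactions with stage passed the limit. Between tissues, some genes passed the interaction test of DESeq2 only, and their values are given here as estimated by edgeR. The log2 fold change was more negative in lung than in trachea for *Stab2* (interaction -1.67 ± 0.36), *Apln* (-1.32 ± 0.29), *Kcnj2* (-1.05 ± 0.20), *Camk4* (-1.07 ± 0.19), *Ackr3* (-0.70 ± 0.16), *Sox18* (-0.80 ± 0.17), *Bcl6b* (-0.92 ± 0.16), *Glp1r*, *Gsg1* and *Nox1*. In trachea itself, *Apln* was at 0.11 ± 0.18, *Sox18* at 0.18 ± 0.08 and *Bcl6b* at 0.26 ± 0.10. *Kcnj2* was at -0.01 ± 0.16 there, *Camk4* at -0.31 ± 0.12 and *Ackr3* at -0.29 ± 0.09. The log2 fold change was more positive in lung for *Foxc1* (interaction 1.27 ± 0.31), *Prss23* (0.72 ± 0.15) and *Pcp4l1* (1.93 ± 0.48). In trachea itself, *Foxc1* was at 0.07 ± 0.15, *Prss23* at -0.06 ± 0.13 and *Pcp4l1* at -0.71 ± 0.40. The edgeR adjusted p of these interactions was at least 0.0863. *Stab2*, *Glp1r*, *Gsg1* and *Nox1* lay under 1 TPM in wt trachea. For *Ptprb*, the change in trachea was -0.67 ± 0.07, and the interaction of -0.18 had an adjusted p of 1 in both tools.

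Of the pan-endothelial genes, 28 of 38 were lower at E12.5 (median -0.11; 49.2% of all genes were lower), with 7 at an unadjusted p under 0.05 (3.56%), and 24 of 38 in trachea (median -0.06; 49.4%), with 5 at this limit (3.64%). The interaction was negative for 35 of 38 against E12.5 (median -0.21), where 11 had an unadjusted p under 0.05 (2.66% of all genes in this direction), and for 32 of 38 against trachea (median -0.24), where 17 did (2.36%). After adjustment none passed in edgeR, and DESeq2 found *Sox18*, *Sox7* and *Icam2* against trachea. The share of negative interactions over all genes was not taken, and a negative sign was not particular to endothelial genes. It held for 22 of 28 pan-epithelial genes against E12.5 and 26 of 28 against trachea, with 0 and 2 at an unadjusted p under 0.05. For ciliated cell genes it held for 15 of 18 against E12.5 and for 0 of 21 against trachea.

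**Figure D5:**
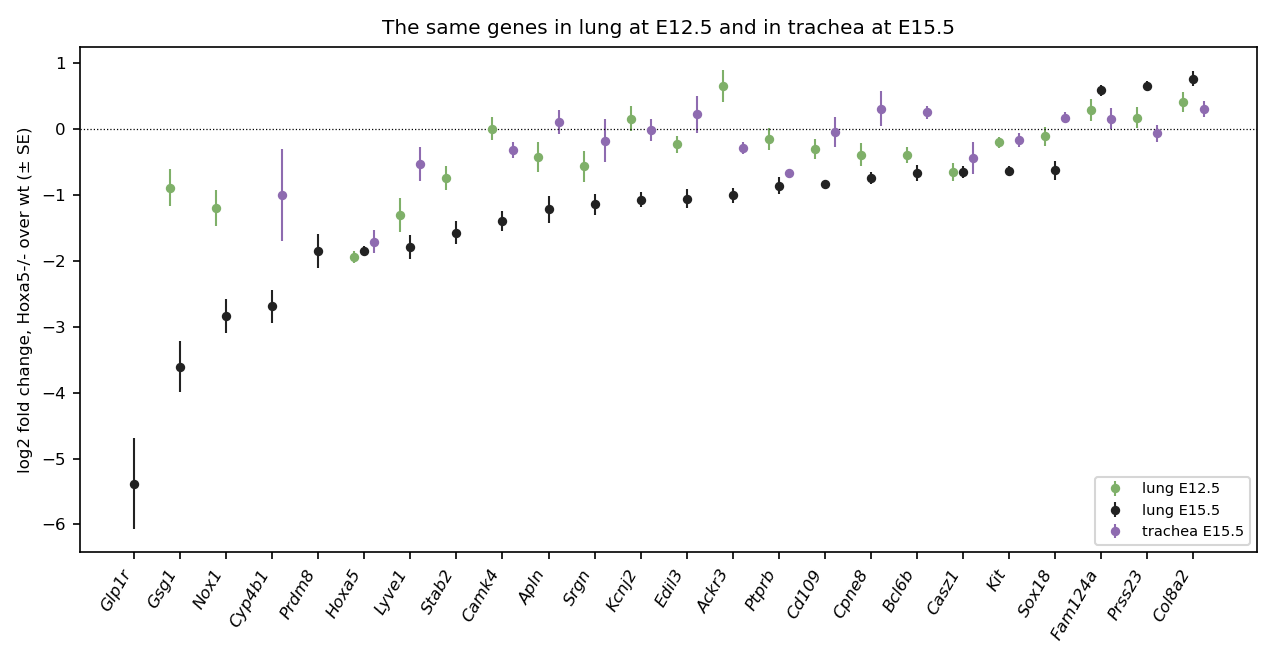
Log2 fold change (*Hoxa5*-/- over wt, with SE) of genes named for lung at E15.5, beside the value of the same gene in lung at E12.5 and in trachea at E15.5 where it reached 1 TPM there. *Ackr3* lies at -1.0 in lung at E15.5 and at 0.66 at E12.5, while *Lyve1* lies below 0 in all 3 contexts.

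The genes that fell in mutant lungs were for the most part those whose wt level in lung exceeded that of the other contexts. Of the 60 genes called lower by DESeq2, 58 had a higher mean TPM in wt lung at E15.5 than in the younger wt lungs (54.5% of all genes did), *Hoxa5* and *Calb2* being the exceptions, and 2, *Ackr3* and *Casz1*, were higher in wt trachea (49.3% of all genes). Measured against the mutant lungs at E15.5, 30 of the 60 exceeded wt lung at E12.5, against 46.2% of all genes, and 33 (55%) lay below wt trachea, against 56.9% of all genes. *Lyve1* was at 30.3 TPM in wt at E12.5, 100 TPM in wt at E15.5 and 26.8 TPM in mutants at E15.5, and *Apln* was at 13.2, 56.4 and 22.8 TPM. Of the 23 genes called higher, 14 had more TPM in wt trachea than in mutant lung (60.9%, against 56.9% of all genes) and 16 more than in wt lung, such as *Foxc1* with 29.9 and 1.43 TPM, *Shisa6* with 21.2 and 1.56 TPM and *Col8a2* with 103 and 11.8 TPM. The wt lung libraries at E15.5 enter both sides of these counts, so that they are descriptions and not independent of the calls.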

How the data were processed

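The authors sequenced polyA RNA of whole lungs, trimmed the reads (Trim Galore 0.6.5), aligned them to GRCm39 using STAR 2.7.9a and obtained gene counts by featureCounts 2.0.3 with an Ensembl annotation curated for *Hox* genes. Their deposited raw counts were used for all tests, and the TPM deposited by the authors for the limit of 1 TPM and for comparing levels. The strand setting is not given in the sources used here. Replicates are described as biological, and no pair of libraries agreed within sampling noise. Genotypes were compared with edgeR 4.0.16 in R 4.3.3 (TMM, quasi-likelihood test, Benjamini-Hochberg adjustment over all genes tested, limits of 1.5-fold and adjusted p under 0.05), with DESeq2 1.42.0 as an alternative. Log2 fold changes given with an SE are from edgeR, also where a DESeq2 adjusted p stands beside them. SE is the log2 fold change divided by the root of F, and intervals are 1.96 SE. The tests were also run on simulated counts with known changes. Each gene was drawn independently there, so shifts shared by many genes of a library, as seen in these data, were not covered. Other alternatives changed the normalization, the filter, the covariates or the libraries. The members and gene lists were chosen with earlier results of these data known. Named were all genes called by edgeR, the 5 largest rises and 10 largest falls without overlap called by DESeq2 alone, the first 3 genes and the called members of each list, and genes that the study names; any other gene was named after its values were seen. Counts cover all genes tested, and 1 called gene is not reported here.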

Additional observations from a re-analysis of the deposited data

Results flagged for a closer look

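In 11 of 176 groups of 4 libraries tested, 1 library lay far from the other 3, and chance alone flags about 1 in 20 such groups. Among the genes, *Apln* was at 27.8 CPM in wt replicate 3 (49.8 to 53.6 in the other wt libraries), *Cd109* at 46.9 CPM in wt replicate 2 (44.9 to 45.1), *Cenpf* at 180 CPM in wt replicate 4 (194 to 197) and *Sox18* at 25.5 CPM in mutant replicate 4 (37.7 to 40.4). Among the measures of quality and tissue, *Rn18s-rs5* took 12% of counts in mutant replicate 4 (0.196% to 0.213% in the other mutants), *Afp* was at 10.97 TPM in wt replicate 1 (1.004 to 1.489) and at 108.8 TPM in mutant replicate 3 (1.57 to 2.86), and the mean correlation of wt replicate 3 with the other libraries was 0.978 (0.984 to 0.985). The mean log2 CPM of the scavenger receptor list was 3.56 in wt replicate 3 (3.27 to 3.30), that of the immediate early list 4.22 in the same library (4.06 to 4.08), and that of the hepatocyte list 3.17 in mutant replicate 3 (-2.17 to -1.35).

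The genotype effect differed between lung at E15.5 and at E12.5 in an edgeR interaction test for 5 genes, none of which was called at E15.5. None passed under the replicate block, without wt replicate 1 or 2 or mutant replicate 2 at E15.5, or without wt replicate 3 or mutant replicates 3 or 4 at E12.5. The interaction was -0.93 ± 0.13 for *Col9a1* (adjusted p = 0.0208) and -1.13 ± 0.15 for *Col9a3* (adjusted p = 0.0189), collagen IX chains of cartilage, with fold changes of 0.24 ± 0.11 and 0.01 ± 0.09 at E15.5 and 1.17 ± 0.08 and 1.15 ± 0.11 at E12.5 on the log2 scale. It was 1.18 ± 0.18 for *Slitrk6* (0.33 ± 0.15 at E15.5 and -0.85 ± 0.08 at E12.5), 1.03 ± 0.15 for *Rnf152* and -1.02 ± 0.16 for *Negr1*. Against trachea, the only such gene was *Hoxa6*, with an interaction of -2.79 ± 0.34 (adjusted p = 0.0137). No gene passed without wt replicate 4 or mutant replicates 1 or 4 of lung, or without replicate 1 of either genotype of trachea.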

How the results depend on the processing

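No called gene changed direction, whereas several list medians, which carry no test, changed sign. The 22 genes called became 83 with DESeq2, 9 with *Xist* as a covariate, and 5 to 37 without 1 library. Alternatives chosen after seeing the data gave 55 with the globin ratio as a covariate, 54 without replicate 3 of both genotypes and 7 without mutant replicates 3 and 4. The replicate block gave 104 genes. No label says whether the replicate numbers pair the samples. Same-numbered libraries had deviations correlated at -0.00, -0.10, 0.47 and 0.18, and differently numbered ones at -0.37 to 0.33. These few values cannot decide whether the numbers mark pairs. The stage interaction of 5 genes became 18 with DESeq2, 0 with the replicate block and 0 to 7 without 1 library. The tissue interaction of 1 gene became 59, 26 and 0 to 2. The causes were not tested.

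Among list medians, leaving out replicate 3 of both genotypes gave -0.014 for venous, -0.30 for erythroid, 1.01 for skeletal muscle and -0.47 for hepatocyte genes. Leaving out mutant replicates 3 and 4 gave 0.14 for neuroendocrine, -0.69 for granulocyte and mast cell, -0.49 for erythroid and -0.51 for hepatocyte genes. The scavenger receptor median was 0.15 with *Xist* and 0.27 with the globin ratio as a covariate. Without 1 library, medians ranged from -0.21 to -0.092 (arterial), 0.0042 to 0.31 (scavenger receptor), -0.084 to 0.070 (vascular ligands), -0.22 to 0.019 (macrophage), -0.28 to 0.23 (erythroid), -0.10 to 1.45 (cardiac), -0.26 to 4.48 (hepatocyte) and -0.15 to -0.10 (TIE and VEGF receptors). The medians of ciliated and airway genes were below 0 without mutant replicate 3 and above 0 without wt replicate 3. The number of libraries, 4 per genotype, limits the precision.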

Other observations

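Among the 42 genes called lower by DESeq2 alone, mutant replicate 1 was the lowest mutant library in 18, with a median exon length of 6218 bases against 3550 for all genes tested. These held *Cep290*, *Ccdc18*, *Ccdc88a*, *Cenpf* and *Gcc2*, which encode centrosomal, cytoskeletal, kinetochore or Golgi proteins, and zinc finger genes such as *Zfp518a* and *Zfp990*. *Ccdc88a* was at 89.3, 91.9, 84.7 and 75.6 CPM in wt and at 29.5, 55.5, 53.8 and 47.8 CPM in mutants, and *Cep290* was at 22.8, 25.8, 27.6 and 9.63 CPM and at 4.69, 7.09, 10.04 and 7.51 CPM. Of the 18 genes called lower by both tools, mutant replicate 1 was the lowest in 5, with a median length of 3348 bases, while those lowest in mutant replicates 2 and 4 had medians of 6109 and 5811 bases, so that the lengths did not follow replicate 1 there. The pattern was noticed after the values were seen, and its cause was not tested.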
